A study of Mus musculus with 12 samples.

Results

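The miRNAs of mouse embryonic fibroblasts were compared between 24 h and 12 h of tunicamycin, over the 8 arrays of treated cells among the 12 arrays of the series. All 8 arrays carried RNA of C57BL/6-background cells that had received 2 ug/mL tunicamycin, so the comparison is between a later and an earlier time under the drug and not between drug and no drug. At each time there were 2 arrays of wild type cells (ATF6aWT) and 2 of knockout cells (ATF6aKO), from experiments that the labels call independent. The 24 h array was set against the 12 h array of the same genotype and replicate number, which gave 4 pairs. The labels describe the knockout only as deficient in ATF6a and do not say how many embryos or lines the cells came from. The array holds probes for 611 mouse miRNAs and none for the ATF6a transcript, so the knockout could not be checked.

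Tunicamycin blocks the first step of N-linked glycosylation, so newly made glycoproteins misfold in the endoplasmic reticulum and the unfolded protein response starts. ATF6a is one of the sensors of that response: it is cut in the Golgi, and the freed part enters the nucleus and activates chaperone genes. The other sensors, IRE1 and PERK, act through an endonuclease and through a brake on translation, and prolonged stress leads from adaptation towards cell cycle arrest and apoptosis. A miRNA is a short RNA that guides Argonaute to mRNAs, mainly through its seed, bases 2 to 8 from the 5′ end, and thereby lowers their translation or stability. The miR-34 family is transcribed under p53 and represses cell cycle and survival genes, and miR-34a is also known as a brake on XBP1 in the unfolded protein response. The miR-30 and miR-221 families have been linked, respectively, to the chaperone BiP and to cell death under such stress.

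The mature sequences of the miRNAs that rose show which of them could share targets, and the seed is in capitals. Sequences and positions are from RefSeq, mouse build GRCm38.p6, in which 15 of the 23 miRNAs past the threshold were matched by name. miR-34a and miR-34b-5p have the same seed, as do miR-301a and miR-130a, although each lies at a locus of its own: miR-34a at chr4:150068473-150068494 on the plus strand, miR-34b-5p at chr9:51103610-51103632 on the minus strand, miR-301a at chr11:87113054-87113076 on the plus strand and miR-130a at chr2:84741116-84741137 on the minus strand. miR-30a (chr1:23272274-23272295, plus strand) and miR-136 (chr12:109595331-109595352, plus strand) have seeds of their own.
miR-34a: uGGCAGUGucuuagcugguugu
miR-34b-5p: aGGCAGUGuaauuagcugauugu
miR-301a: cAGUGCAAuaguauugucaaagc
miR-130a: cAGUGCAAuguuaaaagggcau
miR-30a: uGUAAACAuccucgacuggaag
miR-136: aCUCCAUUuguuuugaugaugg

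Among the miRNAs that fell, the sequences are shown because many are simple repeats. Capitals mark runs of UGUGUG or of its complement CACACA, each searched as written in the mature strand, with overlapping matches joined. miR-1187 lies at chr5:82798964-82798986 on the minus strand, miR-574-5p at chr5:64970328-64970350 and miR-574-3p at chr5:64970364-64970385, both on the plus strand and cut from opposite arms of 1 hairpin. miR-467f lies at chr11:69635419-69635439 on the minus strand and miR-466i at chr13:17747552-17747573 on the plus strand. Of the 9 fallers with a sequence, these 5 held a run, while 0 of the 6 risers with a sequence did. In the whole RefSeq table, 40 of 1679 mature mouse miRNAs (2.38%) held one. The share among the 104 tested miRNAs was not computed, and only 25 of them were matched to a sequence. Current names were looked up only for the 23 past the threshold, miR-1224 and miR-135a*. The RefSeq table held no entry under the names tried for miR-466g, miR-466f-3p, miR-467a*, miR-669c and miR-669f, so its 2.38% may be too low. The tested set is rich in repeat families, so the counts are a description of the sequences shown.
miR-1187: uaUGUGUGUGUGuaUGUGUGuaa
miR-574-5p: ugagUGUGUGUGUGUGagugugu
miR-574-3p: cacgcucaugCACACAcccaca
miR-467f: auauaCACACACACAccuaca
miR-466i: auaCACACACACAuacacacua

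The next 3 fallers, miR-690, miR-1895 and miR-221, have no such run, and their seeds are again in capitals. miR-690 lies at chr16:28599940-28599961, miR-1895 at chr3:134240515-134240536 and miR-221 at chrX:19146307-19146329, all on the minus strand.
miR-690: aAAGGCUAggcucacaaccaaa
miR-1895: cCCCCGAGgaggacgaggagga
miR-221: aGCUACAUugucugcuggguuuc

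Before the results, some facts of the arrays bear on them. All 8 arrays were on slide 2, and replicate 1 of every group was scanned in run 3 and replicate 2 in run 4, so each run held both times and both genotypes. On that slide the 12 h arrays occupied columns 1 and 4 and the 24 h arrays columns 3 and 2, so time and outer against inner column cannot be told apart. The wild type arrays were all in row 1 and the knockout arrays all in row 2. Genotype and row thus cannot be told apart either, nor can a genotype difference in the change between times and an effect of position. Replicates, and so runs, differed widely: over the tested miRNAs, the difference between the 2 arrays of a group had an SD of 1.34 (wild type) and 1.41 (knockout) log2 units at 12 h and of 0.87 and 0.96 at 24 h. In run 4 the lowest signal called well above background was 0.0787 to 0.137 of the scaling level (the 75th percentile over 87 probes above background on every array of the series), against 0.0221 to 0.0372 in run 3. Between 85 and 170 mouse miRNAs per array were well above background. The 24 h arrays differed from their 12 h partners by a mean of -7.75 miRNAs, with pairs ranging from -57 to 41 (exact sign-flip permutation test, two-sided, n = 4 pairs, p = 0.75, where the smallest possible p is 0.125).

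The cells carried most of the miRNAs listed for fibroblasts: 15 of 16 mesenchymal and fibroblast markers were well above background on at least 1 of the 8 arrays. The share of all 611 mouse miRNAs that met this criterion was not computed. Among the 15, miR-10a was at the floor on the 4 knockout arrays. Of the markers of other cells, 0 of 6 for blood, 0 of 6 for epithelium, 0 of 4 for neural cells, 0 of 2 for endothelium and 0 of 1 for liver were. For muscle 1 of 4 was, namely miR-206, and the summed scaled signal of that list ran from 0.0207 to 0.360 at 12 h and from 0.0144 to 0.0581 at 24 h. For pluripotent cells 3 of 18 were, and the summed signal ran from 0.154 to 1.5 at 12 h and from 0.104 to 0.391 at 24 h. Their part in the results was not tested. In bulk RNA, a change in the mix of cells and a change in the RNA per cell cannot be told apart.

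Between 12 and 24 h, 23 of 104 tested miRNAs (22.1%) passed the threshold of an adjusted p under 0.05 (limma with pair as a block, Benjamini-Hochberg): 9 were higher at 24 h (8.65%) and 14 were lower (13.5%). The fit takes the 4 pairs as independent, although the wild type and knockout pairs of a replicate number share a scanning run. If their changes move together, the adjusted p are too small. Over the 104 miRNAs the changes correlated at 0.81 between genotypes but at 0.55 between runs. In the miR-297, miR-466, miR-467 and miR-669 families the median change was -0.61 in run 3 and -1.62 in run 4. By genotype it was -0.96 (wild type) and -1.25 (knockout). In the miR-130 and miR-301 family the runs were close, at 0.53 and 0.57. The pairs of a run thus moved together in the repeat families, where n = 4 pairs overstates the independent changes. By how much was not tested. The rises were modest, 0.37 to 1.27 log2 units, and included miR-301a, the miR-34 family and miR-689. The falls were larger, -0.39 to -1.71, and 10 of the 14 were repeat miRNAs of the miR-466, miR-467 and miR-669 families with miR-1187 and both arms of miR-574. Over all 104 the median change was 0.07, with 63 above 0. This median depends on the scaling: it was -0.58 in the deposited table without scaling and 0.36 with quantile normalization. It thus does not show that the array as a whole was level. All 23 had the same sign in the 4 pairs, which 48 of the 104 (46.2%) had, 29 of them higher (27.9%) and 19 lower (18.3%). For 8 of the 23 the 4 arrays of one time did not overlap the 4 of the other, and no further tested miRNA showed this (7.69%). Of the 23, 12 were measured on all 8 arrays, meaning that the flag for a signal well above background was set and that no probe in use sat at the floor, and 6 had at least 1 array at the floor. A miRNA was tested where both arrays of at least 1 group carried the flag, and 6 of the 23 met this at one time only: miR-689 at 24 h, where it was higher, miR-690, miR-1895, miR-574-3p and miR-7a at 12 h, where they were higher, and miR-136 at 12 h, where it was lower. Without the pair as a block 4 passed, and without the wild type pair of replicate 2 none did (29 at unadjusted p under 0.05), without the knockout pair of replicate 1 the count was 5, and without the knockout pair of replicate 2 it was 13. Scaled on all probes, which raised the median of all tested miRNAs to 0.71, the count was 60 higher and 1 lower. With quantile normalization it was 1 higher and 5 lower, with normexp 5 and 3, centred on the median of measured miRNAs 3 and 14, and in the deposited table without scaling 0 and 3.

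The 3 members of the miR-34 family that could be tested all rose, where 9 of the 104 tested miRNAs (8.65%) did. Each level below is log2 of the signal after division by the array's scaling level, wild type before knockout and replicate 1 before replicate 2. miR-34a measured -2.06, -1.99, -1.41 and -1.69 at 12 h and -1.59, -1.55, -1.08 and -1.27 at 24 h. It was higher at 24 h in every pair, by 0.33 to 0.47, while the 2 times overlapped because the knockout arrays stood above the wild type ones. The mean rise was 0.42 ± 0.09 (SE, n = 4 pairs, adjusted p = 0.0357), or 1.33-fold. Here and below, SE is the moderated standard error of limma, which also draws on the spread of the other tested miRNAs. The 4 pair changes of miR-34a themselves had an SD of 0.06. miR-34c measured -1.33, -1.28, -1.09 and -1.96 at 12 h and -0.77, -0.68, -0.85 and -1.05 at 24 h, so all 24 h arrays were above all 12 h arrays. It rose by 0.58 ± 0.13 (SE, n = 4 pairs, adjusted p = 0.0397), or 1.49-fold. miR-34b-5p, which is processed from the same primary transcript as miR-34c, measured -2.30, -2.66, -2.47 and -2.99 at 12 h and -2.03, -1.96, -2.0 and -2.25 at 24 h. Here too the times did not overlap, with a rise of 0.55 ± 0.12 (SE, n = 4 pairs, adjusted p = 0.0357), and the miRNA was measured on 7 of the 8 arrays.

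The rise was present in both genotypes for the whole family: the median of the 3 was 0.49 in wild type and 0.58 in knockout cells, 0.40 in run 3 and 0.72 in run 4. In the deposited table without scaling, where the median of all miRNAs was -0.58, the family's median was -0.41, and with that table centred it was 0.18. On the untreated arrays, which were on another slide, miR-34a measured -1.16, -1.12, -1.14 and -1.13 and miR-34c -1.14, -1.32, -0.91 and -0.92. The untreated miR-34a level thus lay above every 12 h array but above only 3 of the 24 h arrays, and slide and treatment cannot be told apart in that comparison. Of the 8 p53-responsive miRNAs on the array, only these 3 were tested. None of the 3 passed without the wild type pair of replicate 2 or without either knockout pair, and 1 passed without the wild type pair of replicate 1, while all 12 values within single pairs stayed above 0.

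**Figure D1:**
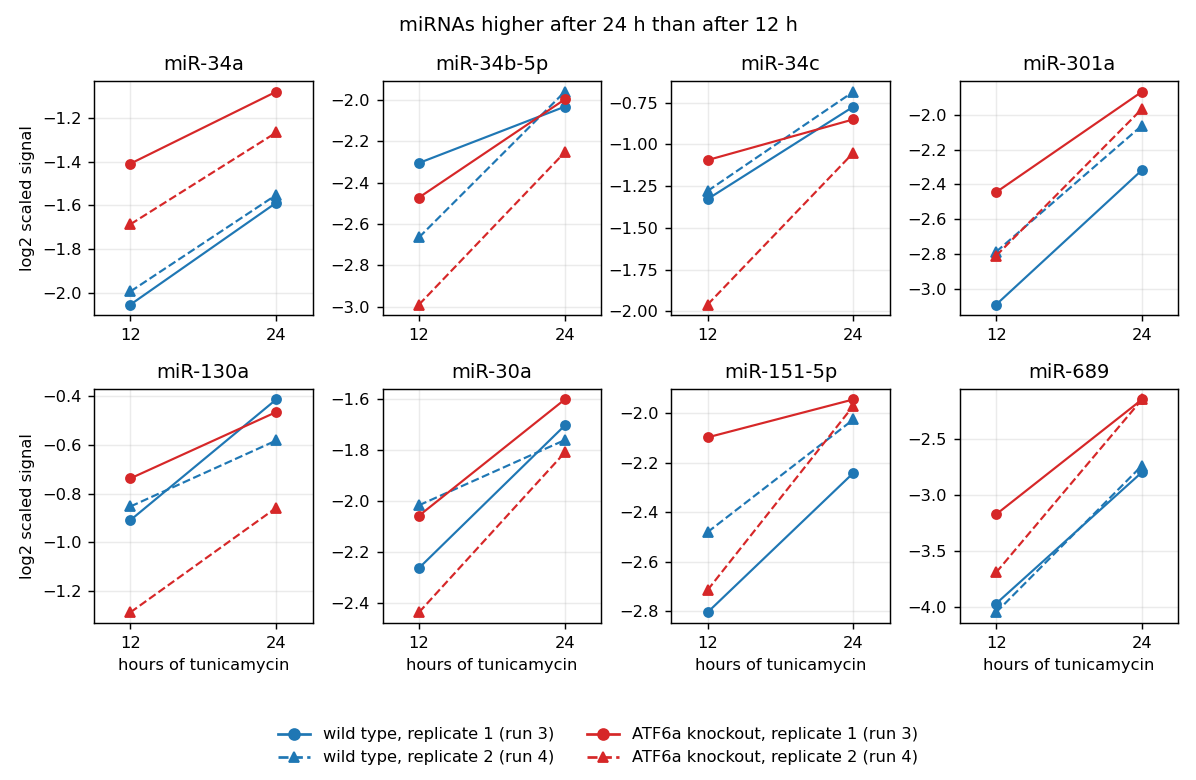
Levels of 8 miRNAs that were higher after 24 h than after 12 h of tunicamycin, as log2 of the scaled signal (vertical axes, which differ between panels) against hours of tunicamycin. Each line joins the arrays of 1 genotype and replicate (blue, wild type; red, ATF6a knockout; solid with circles, replicate 1 in run 3; dashed with triangles, replicate 2 in run 4), and every line goes up from 12 to 24 h.

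The pair of tested members of the miR-130 and miR-301 family, which share the seed shown above, both rose, against 8.65% of all tested miRNAs. miR-301a measured -3.09, -2.79, -2.44 and -2.81 at 12 h and -2.32, -2.06, -1.87 and -1.96 at 24 h, with no overlap. Its rise of 0.73 ± 0.10 (SE, n = 4 pairs, adjusted p = 0.00781), or 1.66-fold, was among the most even, at 0.77 and 0.73 in the wild type pairs and 0.58 and 0.84 in the knockout pairs. miR-130a measured -0.91, -0.85, -0.74 and -1.29 at 12 h and -0.41, -0.58, -0.46 and -0.86 at 24 h. Its times overlapped, and the rise within pairs was 0.37 ± 0.10 (SE, n = 4 pairs, adjusted p = 0.0468). In the deposited table without scaling the family's median was -0.02, above the -0.58 of all miRNAs there. Neither member passed without the wild type pair of replicate 2, and 1 did without any other pair.

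miR-30a, a member of a family that targets autophagy genes and the BiP transcript, measured -2.26, -2.02, -2.06 and -2.44 at 12 h and -1.71, -1.76, -1.60 and -1.81 at 24 h. All 24 h arrays were above all 12 h arrays, and the rise was 0.47 ± 0.11 (SE, n = 4 pairs, adjusted p = 0.0369). The miR-30 family had 3 tested members of 5 on the array, all higher in the 4 pairs with a median of 0.29, of which miR-30a alone passed. Over all tested miRNAs, 27.9% were higher in the 4 pairs and 8.65% passed as higher. miR-30d, the next in size, had a change of 0.29 ± 0.13 (adjusted p = 0.158, limma), which was -0.26 in the summed signal.

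miR-151-5p, encoded in an intron of the focal adhesion kinase gene Ptk2, measured -2.81, -2.48, -2.10 and -2.72 at 12 h and -2.24, -2.02, -1.94 and -1.97 at 24 h. It rose by 0.48 ± 0.13 (SE, n = 4 pairs, adjusted p = 0.0468), by as little as 0.15 in the knockout pair of replicate 1 and as much as 0.75 in that of replicate 2. The direction was lost in the summed signal of the scanner software, where the change was -0.028. miR-136, from the imprinted Dlk1-Dio3 region, measured -3.73, -3.40, -3.57 and -4.07 at 12 h and -3.14, -3.20, -3.15 and -3.15 at 24 h. It rose by 0.53 ± 0.14 (SE, n = 4 pairs, adjusted p = 0.0468) without overlap, but was measured on 5 of 8 arrays. In the deposited table, which drops arrays on which a miRNA was not detected, its change was -1.77 without scaling and -1.35 centred.

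miR-689 had the largest fitted rise, and its entry has been placed among products of abundant RNAs rather than true miRNAs. It measured -3.97, -4.05, -3.17 and -3.69 at 12 h and -2.80, -2.74, -2.14 and -2.14 at 24 h. The 24 h arrays were all higher, by 1.03 to 1.55 within pairs, and the rise was 1.27 ± 0.12 (SE, n = 4 pairs, adjusted p = 0.00556), or 2.41-fold. On the untreated arrays it was at or near the floor, at -5.02, -5.02, -5.02 and -4.99. It carried the flag on 4 arrays at 24 h but 2 at 12 h, so it entered the test only through the time at which it was higher, and its change and lack of overlap are given as a description. In the deposited table its change was -0.87 without scaling and -0.46 centred.

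The next 3 miRNAs above 0 in order of p, among those measured on all 8 arrays, did not pass. miR-199b*, the passenger arm of a mesenchymal miRNA, had a change of 0.33 ± 0.09 (adjusted p = 0.055, limma). miR-1224 had one of 1.12 ± 0.32 (adjusted p = 0.0568, limma), and its values by genotype are given with the genotype difference. miR-22, abundant in fibroblasts, had one of 0.32 ± 0.11 (adjusted p = 0.0858, limma).

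The falls were dominated by the repeat miRNAs. miR-467f, measured on all 8 arrays, stood at -3.25, 0.11, -2.61 and 0.28 at 12 h and at -4.06, -1.24, -3.77 and -1.16 at 24 h, again wild type before knockout and replicate 1 before replicate 2. Replicate 2, scanned in run 4, was far above replicate 1 at both times, and within each run both 24 h arrays were below both 12 h arrays. The fall was -1.19 ± 0.13 (SE, n = 4 pairs, adjusted p = 0.00586), a level 2.28-fold higher at 12 h. miR-1187 stood at -2.92, -0.36, -2.53 and -0.11 at 12 h and at -3.68, -1.77, -3.87 and -1.86 at 24 h. The pattern by run was the same, and the fall was -1.32 ± 0.17 (SE, n = 4 pairs, adjusted p = 0.00781). miR-574-5p stood at -2.26, 0.01, -1.78 and 0.19 at 12 h and at -2.90, -1.23, -3.04 and -1.30 at 24 h, with a fall of -1.16 ± 0.16 (SE, n = 4 pairs, adjusted p = 0.00781). Its sister arm miR-574-3p had a change of -0.96 ± 0.25 (adjusted p = 0.0468, limma), with 3 arrays at the floor and the flag on 2 arrays at 24 h, so that it was tested only through 12 h.

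Of the miR-297, miR-466, miR-467 and miR-669 families, 40 members are on the array, 10 were tested, 7 fell and 0 rose. Over all 104 tested miRNAs, 14 fell (13.5%) and 9 rose (8.65%). The median change of the 10 was -1.11, against 0.07 over all tested miRNAs. miR-669c fell by 1.22 ± 0.25, miR-466f-3p by 1.14 ± 0.22, miR-467a* by 1.12 ± 0.26, miR-466i by 1.11 ± 0.21, miR-466g by 1.08 ± 0.21 and miR-669f by 0.95 ± 0.23, with adjusted p between 0.0270 and 0.0430 (limma). miR-467b* had a change of -1.30 ± 0.46 (adjusted p = 0.103, limma), miR-669a one of -1.10 ± 0.46 (adjusted p = 0.15) and miR-466a-3p one of -1.0 ± 0.53 (adjusted p = 0.225). For miR-466a-3p the runs differed in direction, with 0.21 in run 3 and -2.22 in run 4. Both miR-467b* and miR-466a-3p were tested only through 12 h, where they were higher. Their changes, which enter the median of the 10, are thus given as a description. Members of these families resemble each other in sequence, so signal that their probes may share cannot be separated here, and 7 falls need not be 7 independent changes. No fall in the list passed without the wild type pair of replicate 2 or without the pair as a block, and 1 passed without the knockout pair of replicate 1.

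The same miRNAs carried the largest differences between scanning runs. Over all tested miRNAs, run 4 minus run 3 had a median of -0.21, and 11 exceeded 2 log2 units: 9 of the 10 tested family members, with miR-1187 and miR-574-3p. In the families the difference ran from 1.37 to 3.91, whereas in the 9 miRNAs that rose it lay between -0.27 and 0.02. Their median change between times was -0.61 within run 3 and -1.62 within run 4, and -0.96 in wild type and -1.25 in knockout cells. In run 3 several were near the floor of -5.02 already at 12 h: miR-466g stood at -4.59 and -4.00 and miR-574-3p at -4.82 and -4.32, which limits how far they could be seen to fall. The 3 family members measured on all 8 arrays also changed less in run 3 than in run 4. The values were -0.98 and -1.39 for miR-467f, -0.54 and -1.69 for miR-467a* and -0.45 and -1.45 for miR-669f. The part of the floor in the difference between runs was not tested.

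Beside this fall, the level of dim probes moved the same way. The 75th percentile over all probes, as a ratio to the scaling level, was 0.00776 in wild type and 0.00807 in knockout cells at 12 h in run 3, and 0.00454 and 0.00743 at 24 h. In run 4 it was 0.0304 and 0.0427 at 12 h and 0.0171 and 0.0188 at 24 h. It was thus lower at 24 h in all 4 pairs and higher in run 4 at both times, as the repeat miRNAs were, and its part in their fall was not tested. With scaling on all probes the families' median change was -0.44, and 1 of the 10 fell. With normexp the median was -0.56, also with 1 of the 10. It kept its sign with quantile normalization, at -1.05, and in the deposited table without scaling, at -1.75.

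**Figure D2:**
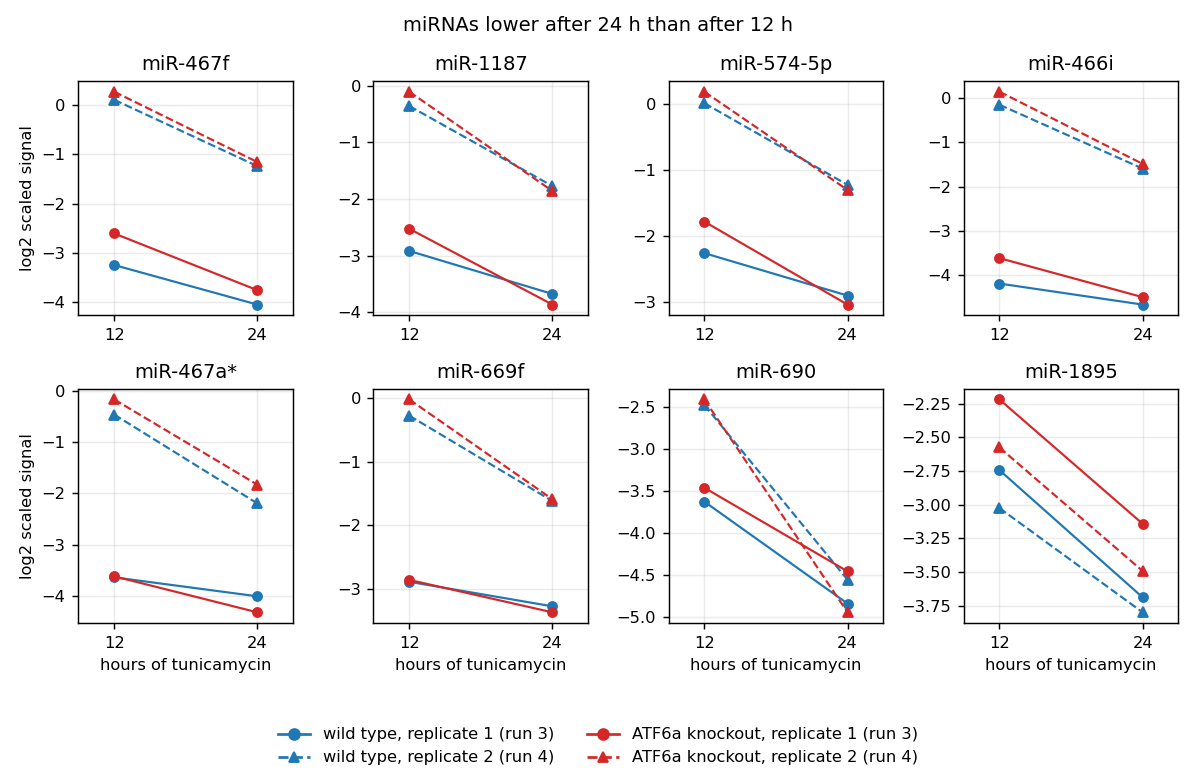
Levels of 8 miRNAs that were lower after 24 h than after 12 h of tunicamycin, as log2 of the scaled signal (vertical axes, which differ between panels) against hours of tunicamycin, with lines and symbols for genotype and replicate as in the plot of rises. In the 6 repeat miRNAs the dashed lines of replicate 2 lie far above the solid lines of replicate 1, which they do not for miR-1895.

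A further 2 large falls were in miRNAs without such repeats. miR-690, classed like miR-689 among products of abundant RNAs, stood at -3.62, -2.47, -3.46 and -2.41 at 12 h and at -4.84, -4.55, -4.45 and -4.94 at 24 h. All 24 h arrays were below all 12 h arrays, and the fall of -1.71 ± 0.28 (SE, n = 4 pairs, adjusted p = 0.0163) corresponds to a level 3.26-fold higher at 12 h. It was -2.31 in run 4 and -1.10 in run 3, and 1 array was at the floor. miR-1895, a GC-rich miRNA with a run of C at its 5′ end, stood at -2.74, -3.02, -2.22 and -2.57 at 12 h and at -3.69, -3.80, -3.14 and -3.49 at 24 h. It fell by nearly the same amount in every pair, -0.94, -0.77, -0.92 and -0.92, without overlap between times, for a mean of -0.89 ± 0.09 (SE, n = 4 pairs, adjusted p = 0.00556). Its runs differed by -0.27. Both miR-690 and miR-1895 carried the flag on 4 arrays at 12 h but on 2 at 24 h, so they entered the test only through the time at which they were higher, and their values are given as a description.

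miR-221, which represses the cell cycle inhibitor p27 and belongs to both the fibroblast and the stress-linked lists, stood at -2.09, -2.34, -1.53 and -2.28 at 12 h and at -2.50, -2.70, -2.11 and -2.51 at 24 h. The times overlapped, and the fall within pairs was -0.39 ± 0.10 (SE, n = 4 pairs, adjusted p = 0.0468), measured on all 8 arrays. Its direction turned with scaling on all probes, to 0.34, and with quantile normalization, to 0.028, where the median of all miRNAs was 0.71 and 0.36. The 14th fall was miR-7a, named here to complete the count after its values were seen. It is a brake on growth factor signalling, and it changed by -0.69 ± 0.17 (adjusted p = 0.043, limma), was measured on 5 arrays and was likewise tested only through 12 h.

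**Figure D3:**
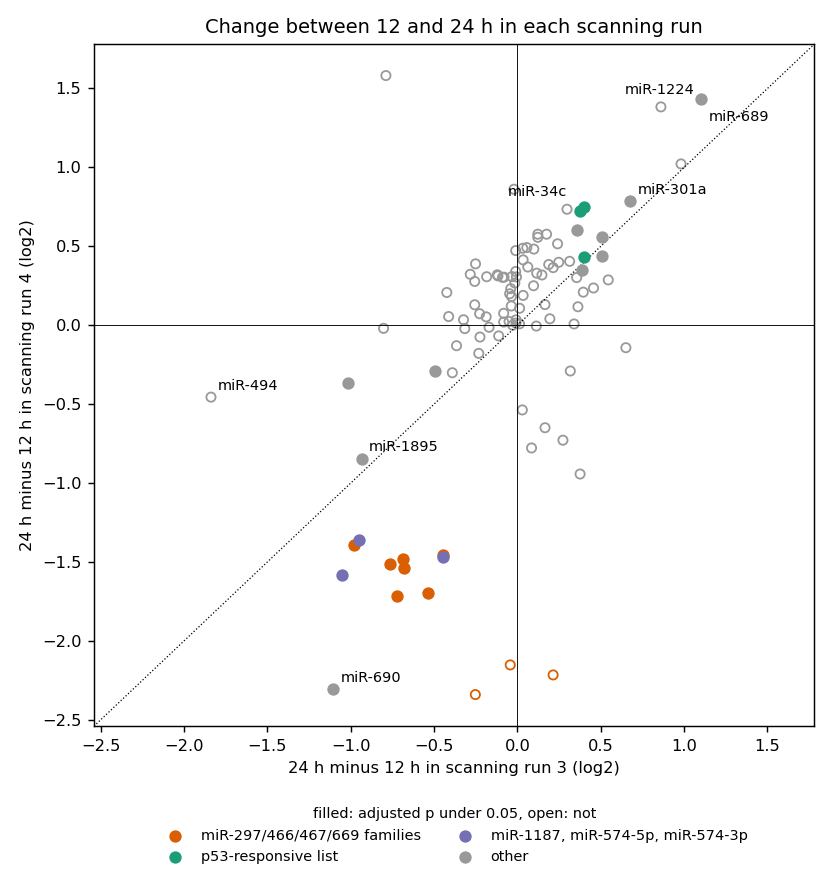
Change from 12 to 24 h (log2, mean of both genotypes) in scanning run 3 (horizontal) against run 4 (vertical) for the 104 tested miRNAs, filled where the adjusted p was under 0.05, with the dotted line marking equal change. The miR-466, miR-467 and miR-669 members lie below that line, with medians of -0.61 in run 3 and -1.62 in run 4, while miR-301a and miR-1895 lie close to it.

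Most groups of miRNAs common in fibroblasts showed no call. The let-7 family had 8 of 9 members tested, with changes from 0.01 to 0.23 and a median of 0.12, and none passed. The miR-17 cluster with its paralogs, known for driving proliferation, had 8 of 13 tested, changes from -0.25 to 0.34 and none past the threshold. The miR-23/27/24 clusters had 5 of 5 tested, all above 0 with a median of 0.17 and none past the threshold. In them miR-27b had a change of 0.42 ± 0.12 (adjusted p = 0.055, limma). The miR-15/16 group had 4 of 7 tested, all above 0 with a median of 0.22, and again none passed. In the mesenchymal and fibroblast list 12 of 16 were tested, the median was 0.02, 1 fell (miR-221) and 0 rose. There miR-10b, from a Hox cluster, had a change of 0.52 ± 0.15 (adjusted p = 0.0568, limma), which was -0.19 in the summed signal. miR-10b was tested only through 24 h, where it was higher, so its change is given as a description.

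Of the 29 miRNAs on the array that the literature links to endoplasmic reticulum stress, 15 were tested: 2 rose (miR-34a and miR-30a), 1 fell (miR-221) and 12 did not pass, with a median change of 0.17. These 3 of 15 stand beside the 22.1% called over all tested miRNAs, so the share is near that background. miR-125b-5p, one of the RNAs reported to be cut by IRE1, stood at 1.1, 0.71, 1.19 and 0.64 at 12 h and at 0.61, 0.36, 0.90 and 0.39 at 24 h. It was lower in all 4 pairs, and the change of -0.35 ± 0.10 (adjusted p = 0.0542, limma) lay just outside the threshold. Scaled on all probes, its change was 0.39. miR-96, another reported substrate, had a change of 0.35 ± 0.11 (adjusted p = 0.0665, limma), which was -0.44 in the summed signal. miR-34a, also among the reported IRE1 substrates, rose, as described above.

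The Dlk1-Dio3 region, a large imprinted cluster on chromosome 12, had 13 of 72 members tested, with a median of -0.01 and 1 rise, miR-136. Of the list named for GC-rich miRNAs that tend to be bright on arrays, 6 of 24 were tested and 3 fell, namely miR-1895, miR-1187 and miR-574-5p. The last 2 are UG repeats and, by the sequences shown above, not GC-rich. Of 7 products of abundant RNAs, 4 were tested, 1 rose (miR-689) and 1 fell (miR-690). Beside the counts of these lists, 8.65% of all tested miRNAs rose and 13.5% fell. The miR-183 cluster had 2 of 3 tested with a median of 0.38 and none past the threshold, and neither miR-210 nor any member of the miR-148 family could be tested.

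**Figure D4:**
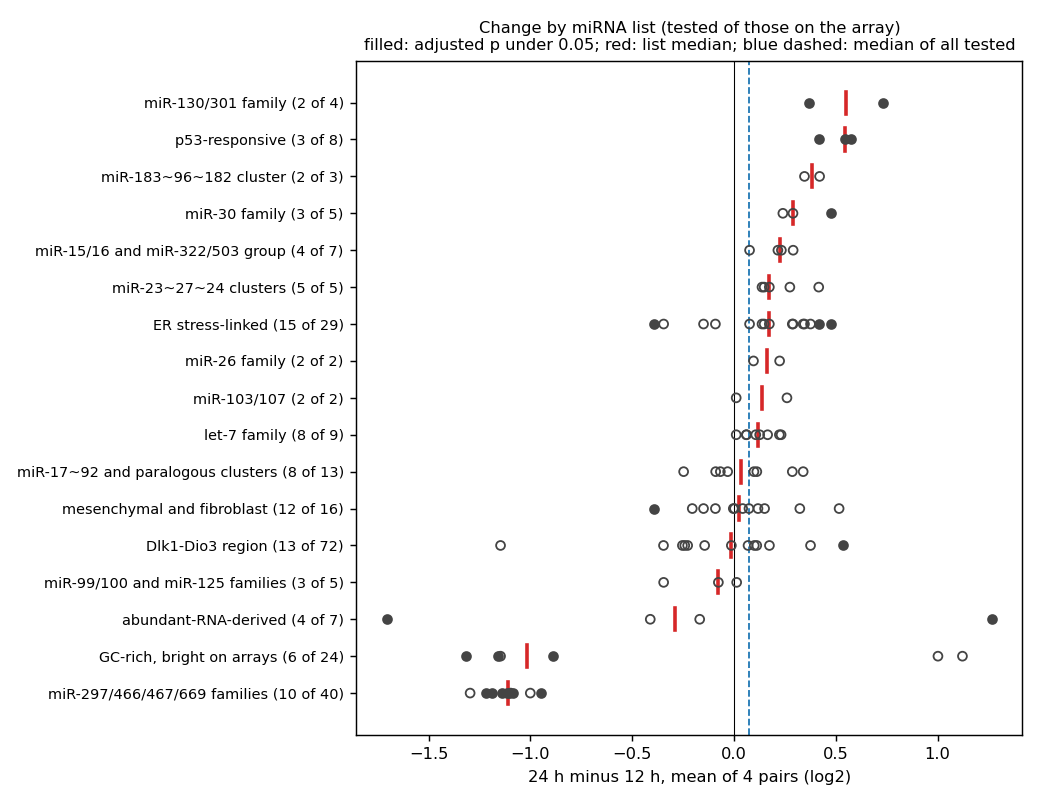
Change from 12 to 24 h (horizontal, log2, mean of 4 pairs) of each tested miRNA, by list (vertical, with the number tested of those on the array), filled where the adjusted p was under 0.05. Red bars are list medians and the blue dashed line is the median of all tested miRNAs, 0.07. The repeat families lie farthest left at -1.11, and the p53-responsive list and that of miR-130 and miR-301 farthest right at 0.55 each.

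Pooling the genotypes was examined by testing whether the change between times differed between knockout and wild type cells. No miRNA passed (0%, limma, interaction term), and 3 had an unadjusted p under 0.05. Over the 104 miRNAs the changes in the genotypes had the same sign for 82 and a correlation across miRNAs of 0.81, which is a description, since miRNAs are not independent and the genotypes share the slide and its runs. The corresponding figures for the runs were 64 and 0.55.

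miR-1224, a mirtron product, was the only one of the 3 measured on all 8 arrays. It stood at -1.09 and -1.19 in wild type and -0.59 and -1.38 in knockout cells at 12 h, and at -0.87, -0.55, 0.92 and 0.74 at 24 h. Both knockout arrays at 24 h were thus above every other array, with a change of 1.81 in knockout and 0.43 in wild type cells. The difference was 1.38 ± 0.34 (SE, n = 2 pairs per genotype, limma, unadjusted p = 0.0065, adjusted p = 0.338), and it passed where only miRNAs measured on all 8 arrays were tested. Untreated cells measured -3.02 and -3.04 in wild type and -3.41 and -3.08 in knockout, on the other slide.

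miR-135a* differed by 1.58 ± 0.32 (limma, unadjusted p = 0.00264, adjusted p = 0.275), but was above background on 1 of 4 wild type arrays and at the floor on 4 arrays in all. It was tested only through the knockout arrays at 24 h, where it was highest, so its difference is given as a description. miR-494 differed by 2.06 ± 0.63 (limma, adjusted p = 0.583), with changes of -2.74 and -1.61 in the wild type pairs and -0.94 and 0.70 in the knockout pairs, which differ in sign. This miRNA was tested only through 12 h, where its mean level was higher, so its difference is likewise a description. It passed without the knockout pair of replicate 1, where the knockout change rests on 1 pair that is assumed to vary like the wild type pairs, and where arrays were centred on the median of measured miRNAs.

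**Figure D5:**
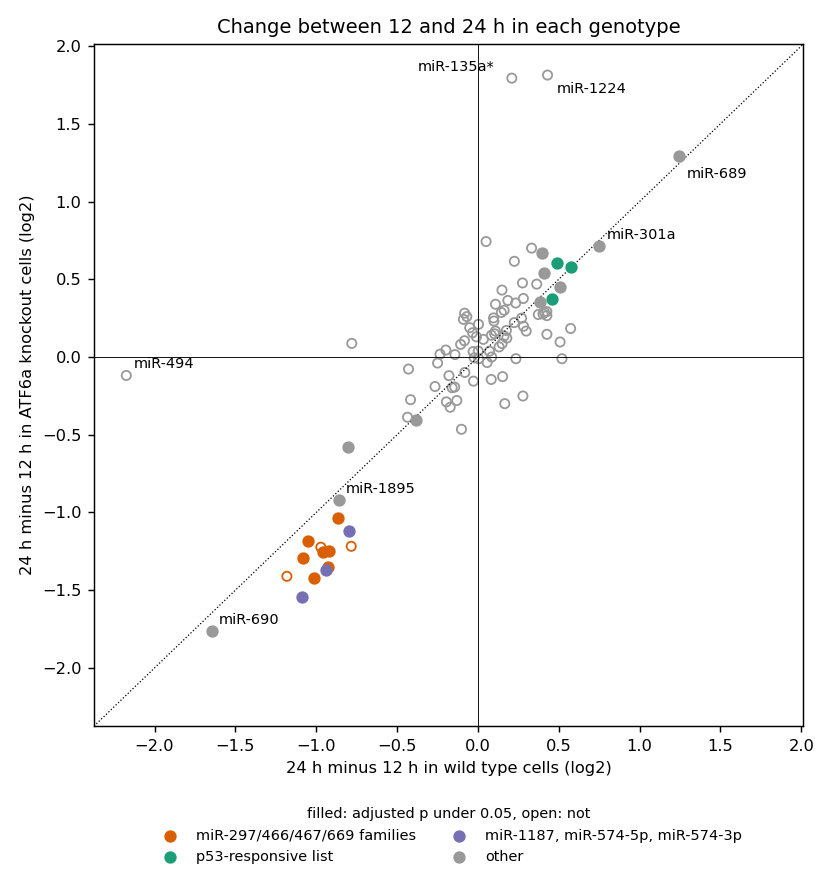
Change from 12 to 24 h (log2, mean of 2 pairs) in wild type (horizontal) against ATF6a knockout cells (vertical) for the 104 tested miRNAs, filled where the adjusted p of the pooled change was under 0.05, with the dotted line marking equal change. The repeat families lie near the line, with medians of -0.96 and -1.25, while miR-1224 and miR-494 lie above it.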

How the data were processed

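Total RNA was labelled with Cy3 and hybridised to 1-colour Agilent miRNA arrays, 100 ng per array, per the labels. The submitters' processing notes name Agilent Feature Extraction 10.7.1.1, and the deposited spot intensities are linear, with local background and a spatial trend removed, per the file headers. In the series table the authors deposited log2 values, found here to equal log2 of a detected miRNA's summed signal. The deposited flags and other columns for signals well above background were used as filters.

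Control and outlier spots were left out and spots of a probe averaged over 1857 probes. The 75th percentile of 87 probes, those flagged as well above background in over 50% of their spots on every one of the 12 arrays, set each array's scaling level, and signals were divided by it, floored at 0.0309 and put on the log2 scale. Probes were used where both replicates of 1 or more of the 4 treated groups carried the flag, and their mean gave the value of a miRNA, which left 104 of 611. limma 3.58.1 in R 4.3.3 was fitted with pair and time (3 residual and 2.63 prior degrees of freedom), tested on simulated data, with Benjamini-Hochberg adjustment at 0.05. A second fit added genotype by time. Pairs come from the replicate numbers, which also mark scanning runs; differences between replicates at 12 h and 24 h correlated across miRNAs (wild type 0.90, knockout 0.89). With 4 pairs, the number of arrays limits the precision. The labels call the experiments independent but do not say whether cells came from separate embryos.

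Up to 12 rises and 12 falls past the threshold were named, then the next by p among miRNAs measured on all arrays, the leading genotype differences and list members. The comparison, lists and members were chosen with earlier results of these data known. Names follow the array's design, and sequences were matched by current name and arm. Alternatives covered scaling, background correction, floor, filters, blocks and each pair left out. normexp (offset 50) used the median spot signal, the mean signal not being used here.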

Additional observations from a re-analysis of the deposited data

Results flagged for a closer look

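miR-1895 fell by 0.77 in the wild type pair of replicate 2, apart from the median of -0.92 of the other 3 pairs, because these lay so close together; the gap was 0.838 of the range, and chance sets apart about 1 in 20 such groups.

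Signal above that of every untreated array was seen for 3 of the 39 viral miRNAs on the array, which the comparison did not use. The highest scaled signal of mghv-miR-M1-2 was 0.303, against 0.0906 on the highest untreated array, and it stood out on the 12 h arrays of replicate 2 in both genotypes. mghv-miR-M1-6 reached 0.0619, against 0.00546, on the wild type 12 h array of replicate 2. The level of dim probes was also highest on the 12 h arrays of replicate 2, at 0.0304 of the scaling level in wild type and 0.0427 in knockout cells. Its part in these viral signals was not tested. mcmv-miR-M23-1-5p reached 0.0158, against 0.00654, on the knockout 24 h array of replicate 1, which is below the floor used for the mouse miRNAs.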

How the results depend on the processing

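Over 24 alternatives, the values of the 23 miRNAs that passed turned in direction 13 times, kept it without passing 317 times and otherwise kept both direction and call. The count of 23 became 4 with no replicate block, 7 with all 12 arrays, 61 scaled on all probes, 6 with quantile normalization, 8 with normexp, 6 with a doubled floor, 3 in the deposited table without scaling and 4 with it centred (an alternative chosen after seeing the data), 4 within run 3, 8 within wild type and 0 within knockout cells (16 at unadjusted p under 0.05). It was 0 with the summed signal (17 at unadjusted p under 0.05) and 0 with no filter (39 of 611). Leaving out each pair gave 0 to 18. For the genotype difference, the count of 0 became 1 among miRNAs measured on all 8 arrays, 1 centred on the median of measured miRNAs (also chosen after seeing the data), and 0 to 1 with a pair left out. Other settings kept the count within 1.5 times.

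Directions turned as follows, and the cause was not tested. Scaled on all probes, miR-125b-5p changed by 0.39 and miR-221 by 0.34, and with quantile normalization miR-221 by 0.028. With the summed signal, miR-151-5p changed by -0.028, miR-96 by -0.44, miR-10b by -0.19 and miR-30d by -0.26. In the deposited table without scaling, where the median of all miRNAs was -0.58, the changes were -0.87 for miR-689, -0.41 for miR-34c, -0.42 for miR-34b-5p, -1.77 for miR-136, -0.63 for miR-151-5p, -0.12 for miR-34a, -0.20 for miR-130a, -0.25 for miR-199b*, -0.16 for miR-22, -0.023 for miR-27b, -1.03 for miR-96, -0.79 for miR-10b and -0.86 for miR-30d. With that table centred they were -0.46 for miR-689, -1.35 for miR-136, -0.028 for miR-151-5p, -0.44 for miR-96, -0.19 for miR-10b, -0.26 for miR-30d and 0.14 for miR-466a-3p, which was 0.21 within run 3. miRNAs near the floor, among them several repeat miRNAs in run 3, are limited by signal over background.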
